A study of Mus musculus with 9 samples.

Results

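The mitochondrial genome of the mouse was followed through 10 of its protein-coding genes, listed by symbol: mt-Nd1, mt-Nd2, mt-Nd4, mt-Nd5, mt-Nd6, mt-Co1, mt-Co2, mt-Co3, mt-Cytb and mt-Atp6. All 10 were found by their Ensembl identifiers among the 21959 genes of the deposited tables, and all 10 passed the filter on low counts, as 10 of 11562 genes tested. The tables held 13 genes of mitochondrial DNA (mtDNA) in all. The libraries came from AML12 cells, a line of hepatocytes made from a mouse with a transgene for human transforming growth factor alpha, kept under free fatty acid (FFA) conditions in every group. OCY-EV+ANTA cells were given extracellular vesicles of aged osteocytes at 2 µg/ml, after 30 min of incubation of the vesicles with antagomir-483-5p, an oligonucleotide directed at the microRNA miR-483-5p. OCY-EV+ANTA-NC cells received the same dose of vesicles incubated for 30 min with the control antagomir-NC. Veh cells received phosphate-buffered saline and no vesicles. Each group had 3 libraries of total RNA. No group received vesicles without an antagomir, so the comparison of OCY-EV+ANTA-NC with Veh joins vesicles and control antagomir. The step after the incubation is called ultracentrifugation by some labels and ultrafiltration by others. No label tells if a group's 3 libraries stem from different cultures, so the spread that the p-values measure may be technical.

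Mitochondrial DNA is a small circle inside the mitochondrion that encodes core subunits of the respiratory chain and of ATP synthase, together with the ribosomal and transfer RNAs that translate them. Both strands are transcribed as long precursors, which are cut at the transfer RNAs between the genes. All of the messenger RNAs except that of mt-Nd6 come from the precursor of the heavy strand, and mt-Nd6 is the only one from the light-strand precursor. Hepatocytes are rich in mitochondria and burn fatty acids there, and the mt-Nd, mt-Cytb, mt-Co and mt-Atp proteins sit in respiratory complexes I, III, IV and V.

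The mt-Nd6 gene lies on the opposite strand to its neighbours, at chrM:13552-14070 of GRCm38 (the assembly of the mm10 build), and shares 14 bases with the end of mt-Nd5 at chrM:11742-13565. The last 30 bases of both genes are shown because the light-strand and heavy-strand messages meet there, with the shared bases in capitals, each gene written along its own strand. Sequences and positions are from GENCODE M21.
mt-Nd5: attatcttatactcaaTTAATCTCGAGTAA
mt-Nd6: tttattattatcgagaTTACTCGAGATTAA
As written along its own strand, mt-Nd6 had 5.97% C and 28.1% G, whereas the 9 heavy-strand members had 23.8% to 27.7% C and 8.0% to 16.1% G. No source used here gives the strand setting of the read counting, so RNA of both strands over a gene cannot be told apart.

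Copies of mtDNA in the nuclear genome share sequence with several members. One block of 7 pseudogenes at chr1:24611535-24616197, 4663 bases long and on the minus strand, matched 681 of the 684 bases of mt-Co2, 678 of 681 of mt-Atp6 and 783 of 784 of mt-Co3, each at 100% identity. It also matched 876 of the 1378 bases of mt-Nd4 at 100% and 483 of the 1545 bases of mt-Co1 at 99.8%. The pseudogenes of the block are not listed in the tables. The start of mt-Co2 (chrM:7013-7042) is shown beside its copy Gm28661 (chr1:24615536-24615565, minus strand) because a read from either place has the same letters.
mt-Co2: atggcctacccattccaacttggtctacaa
Gm28661: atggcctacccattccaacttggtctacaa
Among annotated transcripts, the other members had no copy of 99% identity or more. The best match was 96.7% for mt-Nd2, 95.2% for mt-Nd5, 93.6% for mt-Nd6 and 92.9% for mt-Cytb, and none was found for mt-Nd1. Bases 2 to 31 of mt-Cytb (chrM:14146-14175) differ from its nearest copy Gm11410 (chr4:80003990-80004019) at 2 positions, given in capitals, by which reads of those places can be told apart.
mt-Cytb: tgacaaacatacGaaaaacacaCccattat
Gm11410: tgacaaacatacAaaaaacacaTccattat
How reads that match both an mtDNA gene and a copy were handled is likewise not given. The counts of mt-Co2, mt-Co3 and mt-Atp6 are therefore uncertain, and those of mt-Nd4 and mt-Co1 in part.

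Total counts ran from 17298814 to 21737643 per library. Hnf4a, a transcription factor of hepatocytes, lay between 49.0 and 66.1 CPM, but Alb and Ttr, plasma proteins of the liver, had no more than 7.21 and 2.33 CPM, and Krt19, a keratin of bile duct cells, had 2323 to 2865 CPM. The osteocyte markers Sost and Dmp1 had 0 counts in all 9 libraries. CPM are counts scaled to 1 common library total after TMM normalization. Among the OCY-EV+ANTA-NC libraries, the library numbered 3 stood apart from 1 and 2 for several members, and its values are given wherever a result rests on them.

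Per length, mt-Co1 stood far above the other mtDNA messages. Its mean over the 9 libraries was 17285 FPKM (counts divided by gene length and library total), with a range of 16457 to 17705 FPKM, and it was the most counted gene in the tables. mt-Co1 encodes the catalytic core of cytochrome c oxidase. The next level was that of mt-Nd1, a membrane subunit of complex I, at a mean of 3202 FPKM, and mt-Co1 was 5.40 times as high. mt-Cytb, the only complex III subunit encoded in mtDNA, followed at 2266 FPKM, with mt-Nd2 at 1944 FPKM, mt-Nd5 at 1596 FPKM, mt-Nd4 at 901 FPKM and mt-Nd6 at 739 FPKM. These 4 are further membrane subunits of complex I. Lowest were mt-Co2, which carries the copper site that takes electrons from cytochrome c, at 253 FPKM, mt-Co3, a structural subunit of the same oxidase, at 128 FPKM, and mt-Atp6, part of the proton channel of ATP synthase, at 73.9 FPKM. Ranges over the 9 libraries overlapped only for the neighbours mt-Cytb (1961 to 2493 FPKM) and mt-Nd2 (1748 to 2206 FPKM), and not for any other neighbours in this order.

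The 3 members with the lowest level per length were the same 3 whose sequence lies almost wholly in the nuclear block. The non-members mt-Nd3 and mt-Nd4l, of which 345 of 348 and 294 of 297 bases lie in it, stood still lower at means of 12.4 and 5.33 FPKM. Of mt-Atp8, 21.1% matched an annotated pseudogene of the block. The bases between the pseudogenes of the block were not searched, so more of mt-Atp8 may lie in it. mt-Atp8 had 0 to 8 counts per library and was not tested. If all reads of mt-Co1 and mt-Nd4 are laid on the bases outside the block alone, their levels become 23941 to 25757 FPKM over 1062 bases and 2352 to 2615 FPKM over 502 bases. The part of the nuclear copies in these levels was not tested.

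**Figure D1:**
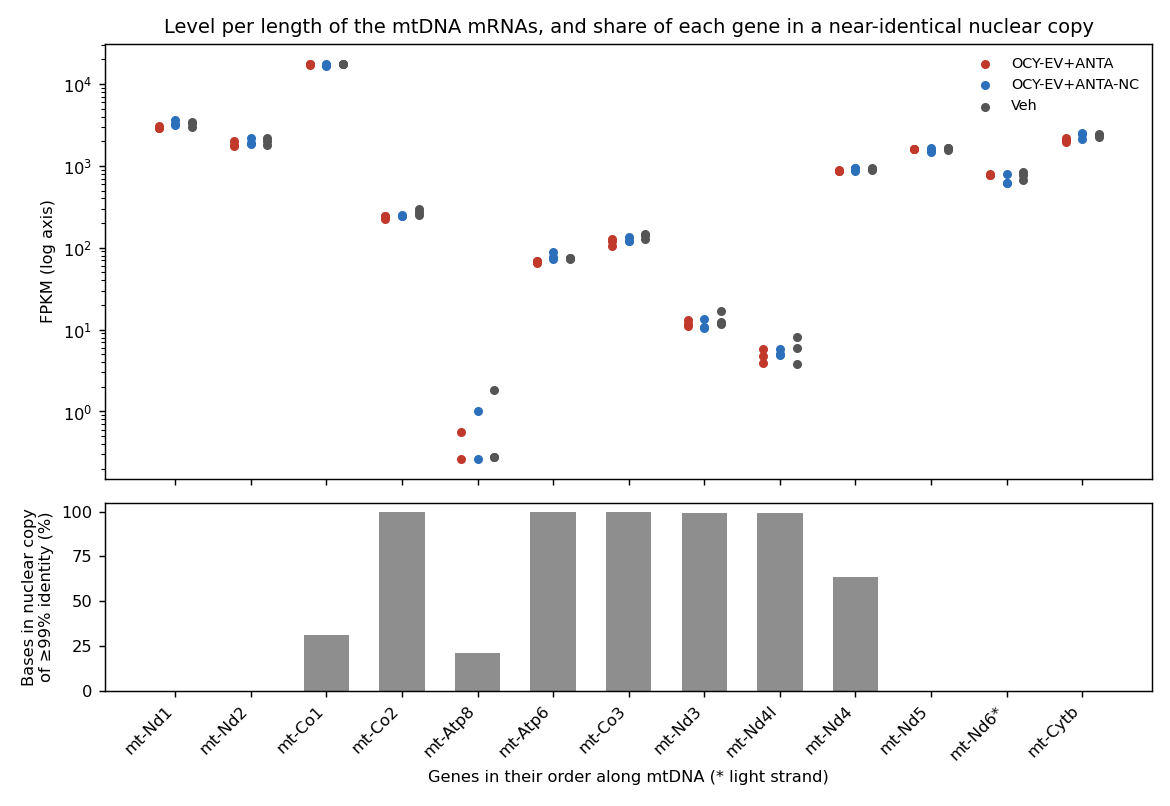
The upper plot gives the level per length (FPKM, log axis) of the 13 mtDNA genes in the tables, in their order along mtDNA, with 1 point per library and the groups OCY-EV+ANTA, OCY-EV+ANTA-NC and Veh from left to right (libraries of mt-Atp8 at 0 are left out of the log axis). The lower plot gives the share of each gene's bases in an annotated nuclear copy of at least 99% identity. mt-Co2, mt-Atp6, mt-Co3, mt-Nd3 and mt-Nd4l, which lie almost wholly in such a copy, are low in the upper plot.

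The summed share of the 10 members in a library's raw counts overlapped between the groups. Without mt-Co1 this raw share was lower in every OCY-EV+ANTA library, which did not hold with TMM scaling or with the GC correction described below. With all 10 the share was 3.93%, 3.94% and 3.78% in the OCY-EV+ANTA libraries 1 to 3 (mean 3.88% ± 0.09, SD, n = 3), 3.95%, 4.00% and 3.77% in OCY-EV+ANTA-NC (3.91% ± 0.12), and 3.91%, 4.07% and 3.97% in Veh (3.98% ± 0.08). No p is given for this sum. mt-Co1 alone made up 66.6% to 69.5% of the members' counts, so the summed share is mainly a reading of that gene. Without mt-Co1 the members took 1.2% ± 0.03 of the counts in OCY-EV+ANTA, 1.28% ± 0.06 in OCY-EV+ANTA-NC and 1.29% ± 0.06 in Veh (SD, n = 3). The OCY-EV+ANTA libraries lay at 1.17% to 1.22%, below those of OCY-EV+ANTA-NC at 1.23% to 1.34% and of Veh at 1.23% or more. Neither pair of groups overlapped, while OCY-EV+ANTA-NC and Veh did overlap. These are shares of raw counts. As TMM-scaled CPM, both pairs overlapped through OCY-EV+ANTA 2, where 29.9% and 25.0% of all genes tested singly did not overlap. The shares are not corrected for GC and length either. Corrected, 3 of 10 members had a negative fold change against OCY-EV+ANTA-NC, instead of 7 as counted. The mean corrected CPM summed without mt-Co1 were then higher in OCY-EV+ANTA than in OCY-EV+ANTA-NC, and still lower than in Veh.

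The members are poor in G and C, at 34.1% (mt-Nd6) to 39.9% (mt-Co1) GC, against a median of 49.6% for the nuclear genes tested. Only 6.07% of those nuclear genes had less GC than mt-Co1, and 0.121% had less than mt-Nd6. This matters for the comparisons, because the libraries differed in how counts moved with GC. The Spearman correlation across genes between a library's deviation from the mean and GC content was 0.082, 0.11 and 0.099 in OCY-EV+ANTA 1 to 3, -0.28, -0.18 and -0.11 in OCY-EV+ANTA-NC, and -0.0099, 0.098 and 0.23 in Veh. Genes are not independent replicates, so these are descriptions. Each comparison was therefore read as counted and again after the trend on GC and length, fitted on nuclear genes, had been removed from each library. The correlation was positive in every OCY-EV+ANTA library and negative in every OCY-EV+ANTA-NC library. Between these groups, a bias of the libraries and a difference of the cells that follows GC cannot be told apart, and the correction removes both. For the members the correction took a median of -0.14 out of the log2 fold change of OCY-EV+ANTA against OCY-EV+ANTA-NC (from -0.20 to -0.10 by gene), 0.10 out of OCY-EV+ANTA-NC against Veh (0.07 to 0.13), and -0.04 out of OCY-EV+ANTA against Veh (-0.07 to -0.03). In both comparisons that involve OCY-EV+ANTA-NC, the median amount removed was larger than the members' median fold change as counted, which was -0.05 in each.

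OCY-EV+ANTA against OCY-EV+ANTA-NC asks what the antagomir against miR-483-5p in the vesicles changed. As counted, mt-Nd6, the light-strand gene, rose, whereas mt-Nd1, mt-Cytb and mt-Atp6 fell, each by a small amount. These were 4 of 10 members called by edgeR's quasi-likelihood test at a Benjamini-Hochberg adjusted p under 0.05, where 14.7% of all genes tested were called. By direction, 1 member was higher, against 7.59% of all genes, and 3 were lower, against 7.09%. The median log2 fold change was -0.05 over the members and -0.06 over the 9 heavy-strand members, beside -0.0020 over all genes.

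mt-Nd6 had 404, 403 and 417 CPM in OCY-EV+ANTA 1 to 3, against 319.8, 322 and 403 CPM in OCY-EV+ANTA-NC 1 to 3. The groups overlapped, because OCY-EV+ANTA-NC 3 lay at the level of the OCY-EV+ANTA libraries while 1 and 2 lay well below. The log2 fold change was 0.23 (SE 0.07, adjusted p = 0.0374, edgeR). Without OCY-EV+ANTA-NC 3 it was 0.34 (adjusted p = 0.00106), and the call was lost without OCY-EV+ANTA-NC 1 or 2 or any single OCY-EV+ANTA library, at adjusted p up to 0.167. DESeq2 did not call it (adjusted p = 0.220), nor did edgeR with scaling by library size alone (adjusted p = 0.0715).

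mt-Nd1 had 2798, 2996 and 2780 CPM in OCY-EV+ANTA, against 3101, 3455 and 2962 CPM in OCY-EV+ANTA-NC. Only OCY-EV+ANTA 2 reached above the lowest OCY-EV+ANTA-NC library. The log2 fold change was -0.15 (SE 0.05, adjusted p = 0.0438, edgeR). mt-Cytb had 2566, 2383 and 2255 CPM in OCY-EV+ANTA, against 2811, 2788 and 2415 CPM in OCY-EV+ANTA-NC. Here too the groups overlapped through OCY-EV+ANTA-NC 3, the lowest of its group. The log2 fold change was -0.15 (SE 0.05, adjusted p = 0.0319), and -0.22 without that library (adjusted p = 0.00122). mt-Atp6 had 47.4, 44.9 and 47.7 CPM in OCY-EV+ANTA, against 52.4, 48.9 and 59.2 CPM in OCY-EV+ANTA-NC, and gave -0.20 on the log2 scale (adjusted p = 0.0321, SE 0.06). It was the only member whose groups did not overlap, where 29.9% of all genes tested had groups that did not overlap. mt-Atp6 is also one of the 3 members that lie almost wholly in the nuclear block.

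Each of these calls was lost when some single libraries were left out. mt-Nd1 was lost without OCY-EV+ANTA-NC 2, OCY-EV+ANTA 1 or OCY-EV+ANTA 3 (adjusted p up to 0.285). mt-Cytb was lost without OCY-EV+ANTA-NC 1 or 2 or OCY-EV+ANTA 2 or 3 (up to 0.153), and mt-Atp6 without OCY-EV+ANTA-NC 3 or OCY-EV+ANTA 2 or 3 (up to 0.192). Under DESeq2 mt-Atp6 alone was called (adjusted p = 0.0366). The 6 members not called lay between -0.07 for mt-Nd2 and 0.08 for mt-Nd5 on the log2 scale, with SE of 0.02 to 0.07. mt-Co1 gave 0.06 (SE 0.02, adjusted p = 0.0932), called without OCY-EV+ANTA 3 (0.08, adjusted p = 0.0221). mt-Nd5 gave 0.08 (SE 0.03, adjusted p = 0.112), called without OCY-EV+ANTA-NC 3 (0.11, adjusted p = 0.0273). Of the non-members, mt-Nd3 gave 0.07 (SE 0.18) and mt-Nd4l -0.08 (SE 0.29), neither called.

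In this comparison same-numbered libraries deviated together from their group means, so the fit with the replicate number as a block stands beside the values above. That fit held all 9 libraries, and whether the number also pairs libraries with Veh cannot be told. It called 7 of 10 members, where 21% of all genes were called, 10.9% higher and 10.1% lower. Higher in OCY-EV+ANTA were mt-Nd6 at 0.23 (adjusted p = 0.000453, edgeR), mt-Nd5 at 0.08 (adjusted p = 0.0296) and mt-Co1 at 0.06 (adjusted p = 0.0301). Lower were mt-Nd1 at -0.15 (adjusted p = 4.52e-05), mt-Cytb at -0.15 (adjusted p = 0.000144), mt-Atp6 at -0.20 (adjusted p = 0.00563) and mt-Nd2 at -0.07 (adjusted p = 0.0459). To 2 decimals these sizes equal those of the fit without the block, and the members called only with it, mt-Nd5, mt-Co1 and mt-Nd2, changed by less than 0.1 on the log2 scale.

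**Figure D2:**
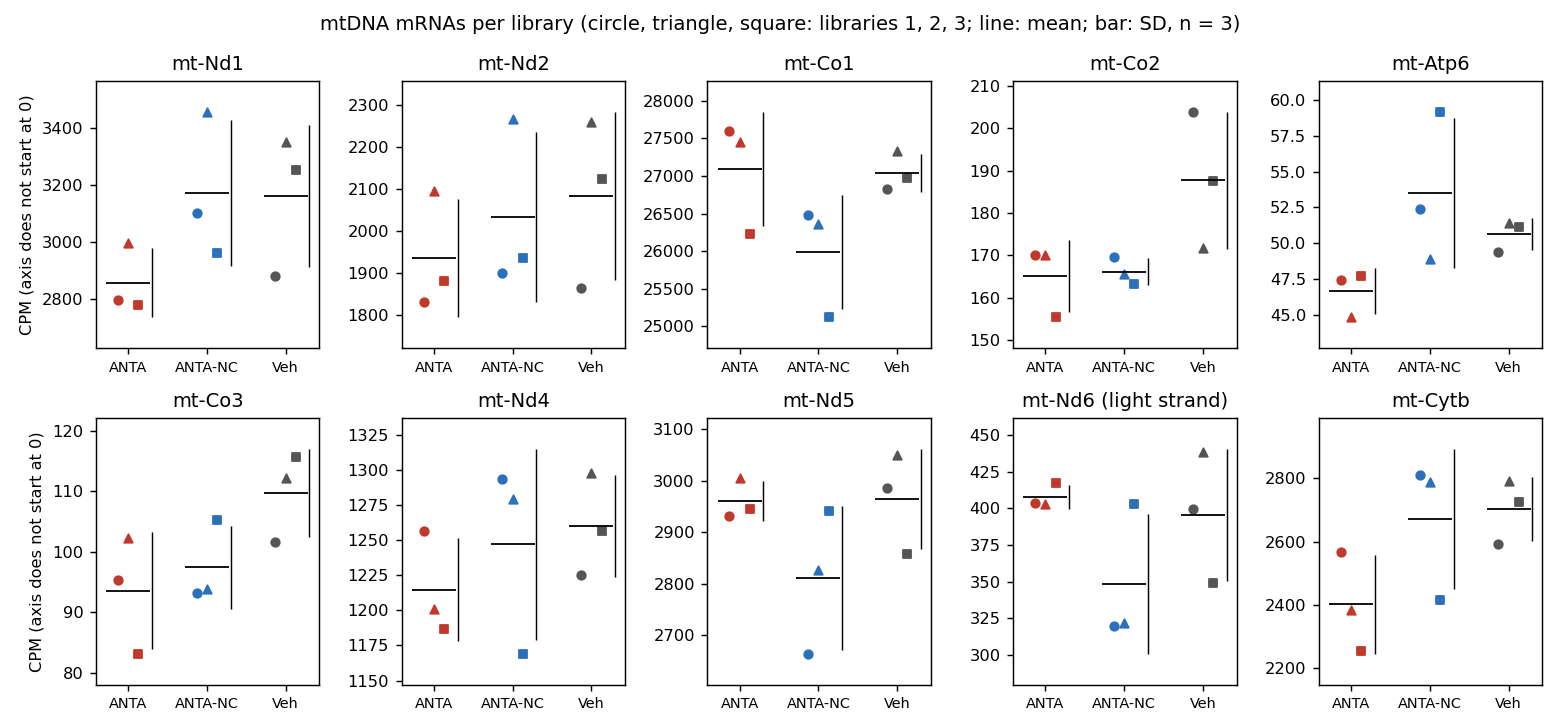
Each plot gives the CPM of 1 member in the 9 libraries, with the groups OCY-EV+ANTA (ANTA), OCY-EV+ANTA-NC (ANTA-NC) and Veh from left to right, the mean as a line and the SD as a bar (n = 3), on axes that do not start at 0. mt-Nd6 lies at 403 to 417 CPM in OCY-EV+ANTA, while OCY-EV+ANTA-NC has 2 libraries at 319.8 and 322 CPM and 1 at 403 CPM.

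With the GC and length trend removed, the picture of this comparison turned. Again 4 of 10 members were called (15.3% of all genes), but all 4 were higher in OCY-EV+ANTA, where 9.90% of all genes were called higher and 5.35% lower: mt-Nd6, mt-Nd5, mt-Co1 and mt-Nd4. The members' median became 0.11, beside 0.02 over all genes. mt-Nd6 had 409, 440 and 455 GC-corrected CPM in OCY-EV+ANTA, against 271, 304 and 399.9 in OCY-EV+ANTA-NC, and its log2 fold change grew to 0.42 (SE 0.09, adjusted p = 0.00227, edgeR). Without the block, mt-Nd6 was the only member called in the same direction with and without the correction, and corrected, its groups no longer overlapped. Its corrected values rest on a trend fitted with few nuclear genes at its GC content, since 0.121% had less.

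mt-Co1 had 28125, 28116 and 27512 GC-corrected CPM in OCY-EV+ANTA, against 24779, 25204 and 24874 in OCY-EV+ANTA-NC, and gave 0.16 on the log2 scale (adjusted p = 9.02e-06, SE 0.02). mt-Nd5 gave 0.22 (SE 0.04, adjusted p = 0.000552) and mt-Nd4 0.13 (SE 0.03, adjusted p = 0.00259). For these 4 genes the corrected groups did not overlap, where 29.8% of all genes did not. The falls seen as counted were not called after the correction. mt-Nd1 then gave -0.01 (SE 0.05, adjusted p = 0.904), mt-Cytb -0.04 (SE 0.04, adjusted p = 0.555) and mt-Atp6 -0.03 (SE 0.07, adjusted p = 0.819). mt-Nd2, mt-Nd4, mt-Co2 and mt-Co3 had a negative fold change as counted and a positive one corrected, of which only mt-Nd4 was called. With the replicate block and the correction together, 6 of 10 members were called, all higher, where 20.8% of all genes were called, 13.4% higher and 7.45% lower. These were mt-Nd6 (0.43, adjusted p = 1.38e-09), mt-Nd5 (0.22, adjusted p = 3.07e-09), mt-Co1 (0.16, adjusted p = 7.83e-09), mt-Nd4 (0.13, adjusted p = 7.17e-05), mt-Nd2 (0.10, adjusted p = 0.00247) and mt-Co2 (0.12, adjusted p = 0.0442, edgeR). With the block, mt-Nd6, mt-Nd5 and mt-Co1 were thus called higher both as counted and corrected, mt-Nd2 was called lower as counted and higher corrected, and mt-Nd1, mt-Cytb and mt-Atp6 lost their calls under the correction.

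Some hepatocyte markers and Krt19, the only bile duct marker listed, also differed in this comparison. Of the 5 hepatocyte markers, Alb, Ttr and Apoa1 were called lower, and with the replicate block also Hnf4a (-0.16). Of all genes 14.7% were called, 7.59% higher and 7.09% lower, and with the block 21%. DESeq2 called 1 of the 5. Counts were low, at 30 to 135 for Alb, 10 to 43 for Ttr and 42 to 118 for Apoa1. The list summed to 141 to 156 CPM in OCY-EV+ANTA and 156 to 162 CPM in OCY-EV+ANTA-NC. Most of that was Hnf4a and Tgfa (82.9 to 91.5 CPM), the latter listed only as the gene of the line's transgene. Of the 8 markers of other cell types, 3 were tested and Krt19 was called higher. The stellate cell markers Des (0.19) and Col1a1 (-0.51 on the log2 scale) were not called. That list, nearly all Krt19, summed to 2576 to 2869 CPM in OCY-EV+ANTA and 2327 to 2433 CPM in OCY-EV+ANTA-NC. Sost and Dmp1 were at 0 in all 9 libraries, and Adgre1, of macrophages, at 0 or 1 count. The part of these differences in the values of the mtDNA genes was not tested, and in bulk RNA fewer cells of a type and less RNA per cell cannot be told apart.

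OCY-EV+ANTA-NC against Veh asks what vesicles with the control antagomir did. As counted, no member was called by edgeR without the block or by DESeq2, and 5 members had an unadjusted p under 0.05. Of all genes, 1.02% were called by edgeR (0.813% higher and 0.208% lower). With the replicate block 3 members were called, all lower, where 1.82% of all genes were called lower and 2.70% higher. Whether the number pairs libraries with Veh cannot be told. The members' median was -0.05, beside -0.0047 over all genes. mt-Co2 had 169.6, 166 and 163 CPM in OCY-EV+ANTA-NC, against 204, 172 and 188 CPM in Veh. These groups did not overlap, with the highest OCY-EV+ANTA-NC library just under the lowest Veh library, but the log2 fold change of -0.18 was not called (SE 0.05, adjusted p = 0.113, edgeR). The groups of mt-Co1 did not overlap either, at 26482, 26364 and 25121 CPM in OCY-EV+ANTA-NC against 26827, 27327 and 26972 CPM in Veh, and its log2 fold change was -0.06 (SE 0.02, adjusted p = 0.276). Across all genes, 19.3% had groups that did not overlap in this comparison. mt-Nd6, with 319.8, 322 and 403 CPM in OCY-EV+ANTA-NC against 399.8, 439 and 349 CPM in Veh, overlapped and gave -0.18 (SE 0.07, adjusted p = 0.244). mt-Co3 gave -0.17 (SE 0.06, adjusted p = 0.225). The other members lay between -0.08 (mt-Nd5) and 0.08 (mt-Atp6). Leaving out Veh 2 brought a call of mt-Co2 (adjusted p = 0.0467), and leaving out OCY-EV+ANTA-NC 3 one of mt-Nd6 (adjusted p = 0.0264).

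Corrected for GC and length, 4 of 10 members were called lower in OCY-EV+ANTA-NC, where 0.225% of all genes were called lower, 0.337% higher and 0.562% in all, and all 10 fold changes were negative, with a median of -0.14 beside -0.02 over all genes. mt-Co1 had 24779, 25204 and 24874 GC-corrected CPM in OCY-EV+ANTA-NC, against 26884, 27077 and 28021 in Veh, and fell by 0.13 on the log2 scale (SE 0.02, adjusted p = 0.00221, edgeR). mt-Co2 gave -0.26 (SE 0.06, adjusted p = 0.0312), mt-Nd5 -0.17 (SE 0.04, adjusted p = 0.0328) and mt-Nd4 -0.13 (SE 0.03, adjusted p = 0.0304). These 4 were the members whose corrected groups did not overlap, as was the case for 19.9% of all genes. mt-Nd6 had a larger fold change, -0.30, but its spread was also larger (SE 0.09, adjusted p = 0.108, edgeR). With the block and the correction together 9 of 10 members were called lower, where 2.61% of all genes were called lower and 1.55% higher. This comparison and the one before it share the OCY-EV+ANTA-NC libraries, so their values are not independent: corrected, mt-Co1 gave 0.16 in OCY-EV+ANTA against OCY-EV+ANTA-NC and -0.13 in OCY-EV+ANTA-NC against Veh.

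**Figure D3:**
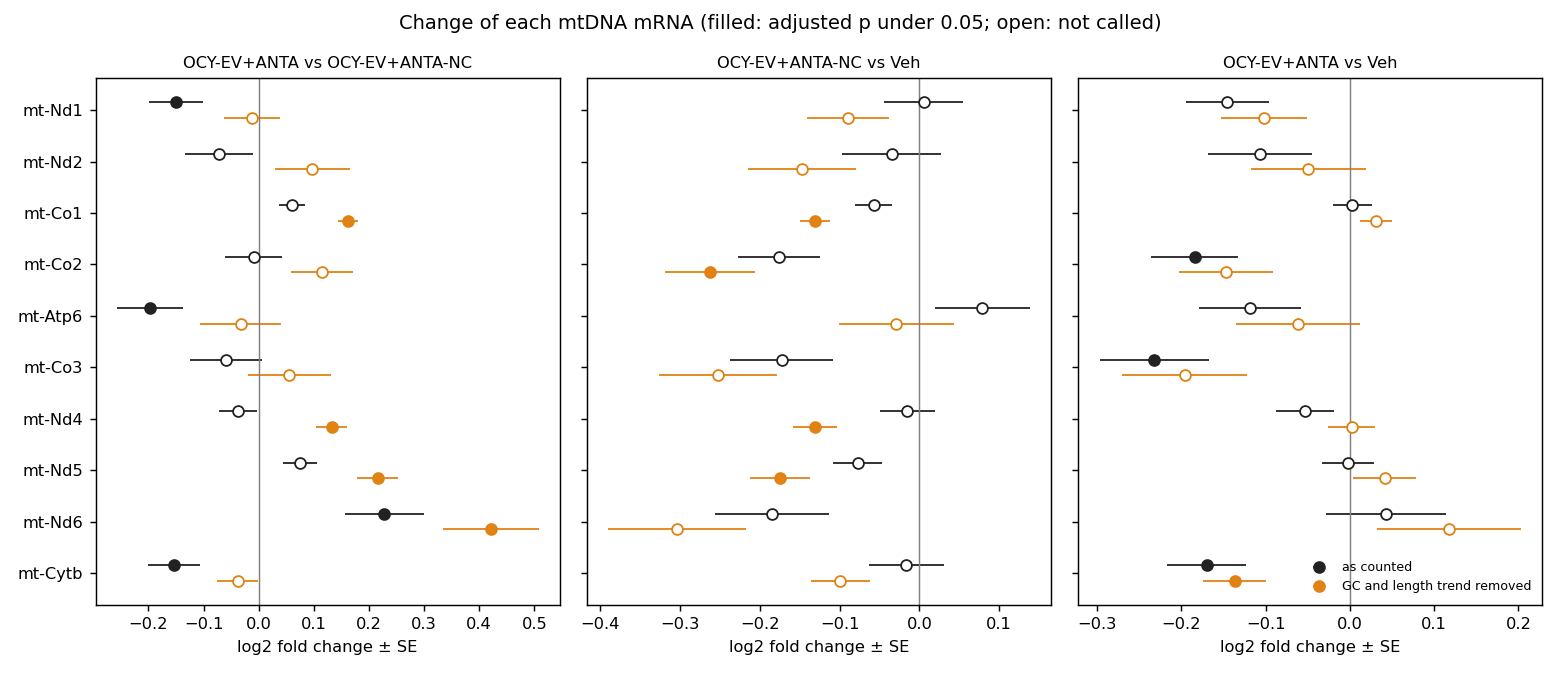
The log2 fold change of each member is plotted with its SE for OCY-EV+ANTA against OCY-EV+ANTA-NC, OCY-EV+ANTA-NC against Veh and OCY-EV+ANTA against Veh, as counted (black) and with the GC and length trend removed (orange); filled points were called at an adjusted p under 0.05 in the fit without the replicate block. The corrected points lie to the right of the counted ones in the first comparison and to the left in the second, and mt-Nd6 in the first and mt-Cytb in the third are filled in both colours.

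OCY-EV+ANTA against Veh sets vesicles with the antagomir against miR-483-5p beside no vesicles. As counted, mt-Co2, mt-Co3 and mt-Cytb fell, 3 of 10 members called lower where 6.52% of all genes were called, 3.06% higher and 3.46% lower. The members' median was -0.11, beside 0.00013 over all genes. mt-Co2 had 170.0, 170.0 and 155 CPM in OCY-EV+ANTA, against 204, 172 and 188 CPM in Veh, and gave -0.18 on the log2 scale (adjusted p = 0.0348, SE 0.05, edgeR). mt-Co3 had 95.3, 102 and 83.1 CPM in OCY-EV+ANTA, against 102, 112 and 116 CPM in Veh, and gave -0.23 (adjusted p = 0.0348, SE 0.06). mt-Cytb had 2566, 2383 and 2255 CPM in OCY-EV+ANTA, against 2592, 2790 and 2724 CPM in Veh, and gave -0.17 (adjusted p = 0.0334, SE 0.05). Groups did not overlap for mt-Co2, mt-Cytb and mt-Atp6 (25.0% of all genes), and those of mt-Co3 overlapped narrowly, through OCY-EV+ANTA 2 and Veh 1. mt-Nd1 gave -0.15 (SE 0.05, adjusted p = 0.0814) and was not called, but was without Veh 1 (-0.21, adjusted p = 0.00973) and without OCY-EV+ANTA-NC 2 (adjusted p = 0.0484). mt-Nd6 gave 0.04 (SE 0.07, adjusted p = 0.785).

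mt-Co2 and mt-Co3 are both almost wholly in the nuclear block, so mt-Cytb is the only call of this comparison among members that are not. It was also the only member still called with the GC and length trend removed, at -0.14 (SE 0.04, adjusted p = 0.0280, edgeR), where 3.58% of all genes were called lower, 3.43% higher and 7.01% in all. The corrected values gave -0.15 (adjusted p = 0.126) for mt-Co2 and -0.20 (adjusted p = 0.121) for mt-Co3, and no member had groups that did not overlap (25.4% of all genes). mt-Cytb lost its call as counted without Veh 2, Veh 3, OCY-EV+ANTA 2 or OCY-EV+ANTA 3 (adjusted p up to 0.167) and under DESeq2 (adjusted p = 0.183). mt-Co2 lost it without Veh 1, Veh 3, OCY-EV+ANTA 2 or OCY-EV+ANTA 3 (up to 0.195), and mt-Co3 without Veh 2, Veh 3 or OCY-EV+ANTA 3 (up to 0.190). Of the marker genes, Ttr alone was called lower in OCY-EV+ANTA against Veh (1 of 5 hepatocyte markers, none of the others), where 3.46% of all genes were. DESeq2 called 0 of the 5. The hepatocyte list, mostly Tgfa and Hnf4a, summed to 141 to 156 CPM in OCY-EV+ANTA and 159.8 to 160.1 CPM in Veh. The other list summed to 2576 to 2869 CPM in OCY-EV+ANTA and 2525 to 2575 CPM in Veh. The part of the marker differences in these values was not tested.

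The light-strand gene mt-Nd6 was also read against the heavy-strand members within each library, a ratio that no scaling of the library total can move. Without the strand setting, counts over mt-Nd6 may include RNA of the opposite strand, so the ratio need not be one of light to heavy strand. mt-Nd6 came to 1.03%, 1.02% and 1.11% of the summed counts of the 9 heavy-strand members in OCY-EV+ANTA (mean 1.05% ± 0.05, SD, n = 3), 0.829%, 0.819% and 1.09% in OCY-EV+ANTA-NC (0.914% ± 0.16), and 1.03%, 1.09% and 0.882% in Veh (1.00% ± 0.11). The 3 groups overlapped. OCY-EV+ANTA-NC 1 and 2 and Veh 3 were the low libraries, and the remaining 6 lay between 1.02% and 1.11%. With the GC and length trend removed the ratio was 1.08% ± 0.06 in OCY-EV+ANTA, 0.889% ± 0.18 in OCY-EV+ANTA-NC and 1.00% ± 0.09 in Veh (SD, n = 3), in the same order, and the spread over the OCY-EV+ANTA-NC libraries was no smaller. Against mt-Nd5, its neighbour on the opposite strand, mt-Nd6 had 13.8% ± 0.4 of the counts in OCY-EV+ANTA, 12.4% ± 1.2 in OCY-EV+ANTA-NC and 13.3% ± 1.1 in Veh. No p is given for these ratios.

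**Figure D4:**
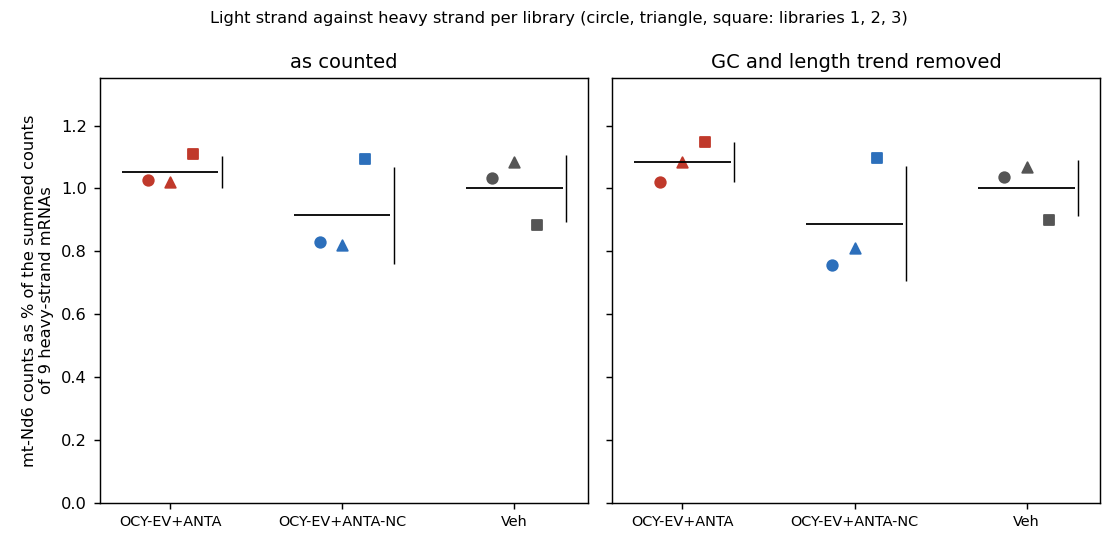
mt-Nd6 counts as a percentage of the summed counts of the 9 heavy-strand members are plotted per library for OCY-EV+ANTA, OCY-EV+ANTA-NC and Veh from left to right, as counted and with the GC and length trend removed, with the mean as a line and the SD as a bar (n = 3). As counted, 2 of the 3 OCY-EV+ANTA-NC libraries lie at 0.819% and 0.829%, and the remaining library, at 1.09%, lies among the OCY-EV+ANTA libraries.

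Members did not vary as one over the 9 libraries. As descriptions, with groups and library preparation shared between the points, the Pearson correlation of log2 CPM was 0.92 between mt-Cytb and mt-Nd4, 0.90 between mt-Nd1 and mt-Nd2, which are neighbours on the heavy strand, and 0.90 between mt-Nd5 and mt-Nd6, which overlap on opposite strands. It was -0.57 between mt-Cytb and mt-Nd6 and -0.74 between mt-Co1 and mt-Atp6. With the 8 members other than mt-Nd5, mt-Nd6 had correlations of -0.57 to 0.17. Among 10304 genes averaging 2 CPM or more, those most like the mean log2 CPM of the 10 members over the 9 libraries were Twf1 (Pearson 0.93), Vps53 (0.92), Wwtr1 (0.92), Mrpl12 (0.92) and Ripk4 (0.91). Mrpl12 encodes a mitochondrial ribosomal protein that also binds the mitochondrial RNA polymerase. These 5 are the highest of 10304 correlations over 9 libraries, and a link to the members was not tested.

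Nuclear genes that serve mtDNA were read from 9 lists, with 139 of 146 genes tested. In OCY-EV+ANTA against OCY-EV+ANTA-NC 9 of the 139 were called, 8 of them lower, where 14.7% of all genes were called, and in OCY-EV+ANTA against Veh 6, where 6.52% were, so neither total stood above the background. Of those that transcribe mtDNA (11 tested, among them the polymerase gene Polrmt and the packaging factor gene Tfam), none was called in OCY-EV+ANTA against OCY-EV+ANTA-NC, with or without the replicate block (median -0.09, 3 with an unadjusted p under 0.05, 0 by DESeq2). Mterf4 and Mterf3, members of the termination factor family, gave -0.17 (adjusted p = 0.0740) and -0.19 (adjusted p = 0.0740, edgeR). Against Veh, Mrpl12 fell in OCY-EV+ANTA, with 38.4 ± 2.1 CPM, against 44.5 ± 2.7 CPM in Veh (SD, n = 3), and gave -0.22 (adjusted p = 0.0334), 1 of 11. Its call was lost without Veh 1, Veh 2, OCY-EV+ANTA 2 or OCY-EV+ANTA 3 (up to 0.197).

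Among 15 genes of mtDNA replication and the nucleoid, 2 were called in OCY-EV+ANTA against OCY-EV+ANTA-NC, both lower (median -0.11). The share of the list is near that of all genes, of which 14.7% were called and 7.09% were lower. With the replicate block 3 were called, all lower, where 21% of all genes were. Ssbp1, the protein that coats single-stranded mtDNA, had 39.7 ± 1.3 CPM in OCY-EV+ANTA, against 47.8 ± 0.9 CPM in OCY-EV+ANTA-NC (SD, n = 3), a log2 fold change of -0.27 (adjusted p = 0.00191, edgeR), which held without any single library (up to 0.0128) and with the GC and length trend removed (-0.21, adjusted p = 0.0107). Primpol, a primase that restarts stalled replication, gave -0.29 (adjusted p = 0.0204), lost without OCY-EV+ANTA-NC 2 or OCY-EV+ANTA 1 (up to 0.0921). No gene of this list was called in OCY-EV+ANTA against Veh (3 with an unadjusted p under 0.05, 0 by DESeq2), where Twnk, the mtDNA helicase, gave -0.15 (adjusted p = 0.0629).

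Of 23 tested genes that process or stabilise mitochondrial RNA, 3 fell and 1 rose in OCY-EV+ANTA against OCY-EV+ANTA-NC (median -0.07), again near the 14.7% of all genes that were called (7.59% higher and 7.09% lower). With the replicate block 4 fell and 3 rose, where 10.1% of all genes were called lower and 10.9% higher. Ptcd3, a protein of the small mitochondrial ribosomal subunit, had 56.0 ± 2.7 CPM in OCY-EV+ANTA, against 69.0 ± 2.2 CPM in OCY-EV+ANTA-NC (SD, n = 3), a log2 fold change of -0.30 (adjusted p = 0.000586, edgeR), and was called without each single library (up to 0.00563) and after the GC and length correction (-0.25, adjusted p = 0.00245). Lrpprc, which with its partner Slirp stabilises heavy-strand messages, fell by 0.19 on the log2 scale (adjusted p = 0.0230), lost without OCY-EV+ANTA-NC 1, OCY-EV+ANTA 2 or OCY-EV+ANTA 3 (up to 0.115). Fastkd3, of a family of mitochondrial RNA-binding proteins, gave -0.38 (adjusted p = 0.0140), lost without OCY-EV+ANTA-NC 2 or OCY-EV+ANTA 3 (up to 0.0631). Grsf1, a protein of mitochondrial RNA granules that in human cells binds light-strand RNA, that of the mt-Nd6 homologue included, rose: it had 236 ± 8 CPM in OCY-EV+ANTA, against 214 ± 5 CPM in OCY-EV+ANTA-NC and 215 ± 3 CPM in Veh (SD, n = 3). Its log2 fold change was 0.14 in both (adjusted p = 0.0104 against OCY-EV+ANTA-NC, lost without OCY-EV+ANTA 2 at 0.0715, and 0.0257 against Veh, lost without Veh 2, Veh 3 or OCY-EV+ANTA 2, up to 0.122). Grsf1 was the only gene of this list called in OCY-EV+ANTA against Veh.

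None of 13 nuclear regulators of mitochondrial genes was called in any of the 3 comparisons, by edgeR without the block or by DESeq2, and 2, 2 and 0 had an unadjusted p under 0.05. Ppargc1a, the coactivator of mitochondrial biogenesis, gave -0.43 in OCY-EV+ANTA against OCY-EV+ANTA-NC (SE 0.17, adjusted p = 0.108).

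The nuclear partners of the members in the respiratory complexes moved little. No complex I subunit of 36 tested was called in any comparison by edgeR without the block or by DESeq2 (2 had an unadjusted p under 0.05 in OCY-EV+ANTA against OCY-EV+ANTA-NC, 6 in OCY-EV+ANTA-NC against Veh and 8 in OCY-EV+ANTA against Veh), nor any of the 4 complex II subunits (0, 0 and 1), a complex that has no part encoded in mtDNA. In complex III, 1 of 9 was called: Uqcrh fell by 0.13 against OCY-EV+ANTA-NC (adjusted p = 0.0422) and by 0.17 against Veh (adjusted p = 0.0191). In complex IV, 1 of 13 fell against OCY-EV+ANTA-NC, Cox7b at -0.20 (adjusted p = 0.00181, up to 0.0110 without any library), and Cox4i1 (-0.13) and Cox7a2 (-0.17) fell against Veh (adjusted p = 0.0432 for both, edgeR). In complex V, Atp5j fell by 0.18 in both (adjusted p = 0.0249 against OCY-EV+ANTA-NC and 0.0464 against Veh, edgeR), 1 of 15. DESeq2 called 1 of these 15 against OCY-EV+ANTA-NC and 0 against Veh, and 1 of the 13 of complex IV in each. With the replicate block, Uqcrc1 of complex III and Atp5g2 of complex V were also called against OCY-EV+ANTA-NC, at 0.12 and 0.10 (named after their values were seen), and still none of complexes I and II. Of these, Uqcrh was lost without OCY-EV+ANTA-NC 1 or 2 or OCY-EV+ANTA 1 or 2 (up to 0.165) and, against Veh, without Veh 2 or OCY-EV+ANTA 2 (up to 0.125). Atp5j was lost without OCY-EV+ANTA-NC 1 or OCY-EV+ANTA 2 or 3 (up to 0.144), and, against Veh, without each Veh or OCY-EV+ANTA library or OCY-EV+ANTA-NC 2 (up to 0.158). Cox4i1 was lost without each Veh library in turn, OCY-EV+ANTA-NC 2 or 3, or OCY-EV+ANTA 2 or 3 (up to 0.188), and Cox7a2 without each Veh library, OCY-EV+ANTA-NC 2, or OCY-EV+ANTA 2 or 3 (up to 0.184). With the GC and length trend removed, Uqcrh against OCY-EV+ANTA-NC (adjusted p = 0.181) and Cox4i1 (0.0570), Cox7a2 (0.0692) and Atp5j (0.0649) against Veh were no longer called.

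In OCY-EV+ANTA-NC against Veh, none of the 139 nuclear genes was called by edgeR without the block, with 23 at an unadjusted p under 0.05. DESeq2 called 3, namely Atp5a1, Cox4i1 and Primpol, named after their values were seen. Medians in this comparison were 0.04 for transcription, 0.07 for replication, 0.00031 for RNA processing, -0.01 for regulators, and -0.06, -0.06, -0.07, -0.06 and -0.06 for complexes I to V. Atp5a1, the alpha subunit of ATP synthase, gave -0.10 (adjusted p = 0.0793) and Cox4i1 -0.14 (adjusted p = 0.0843, edgeR).

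**Figure D5:**
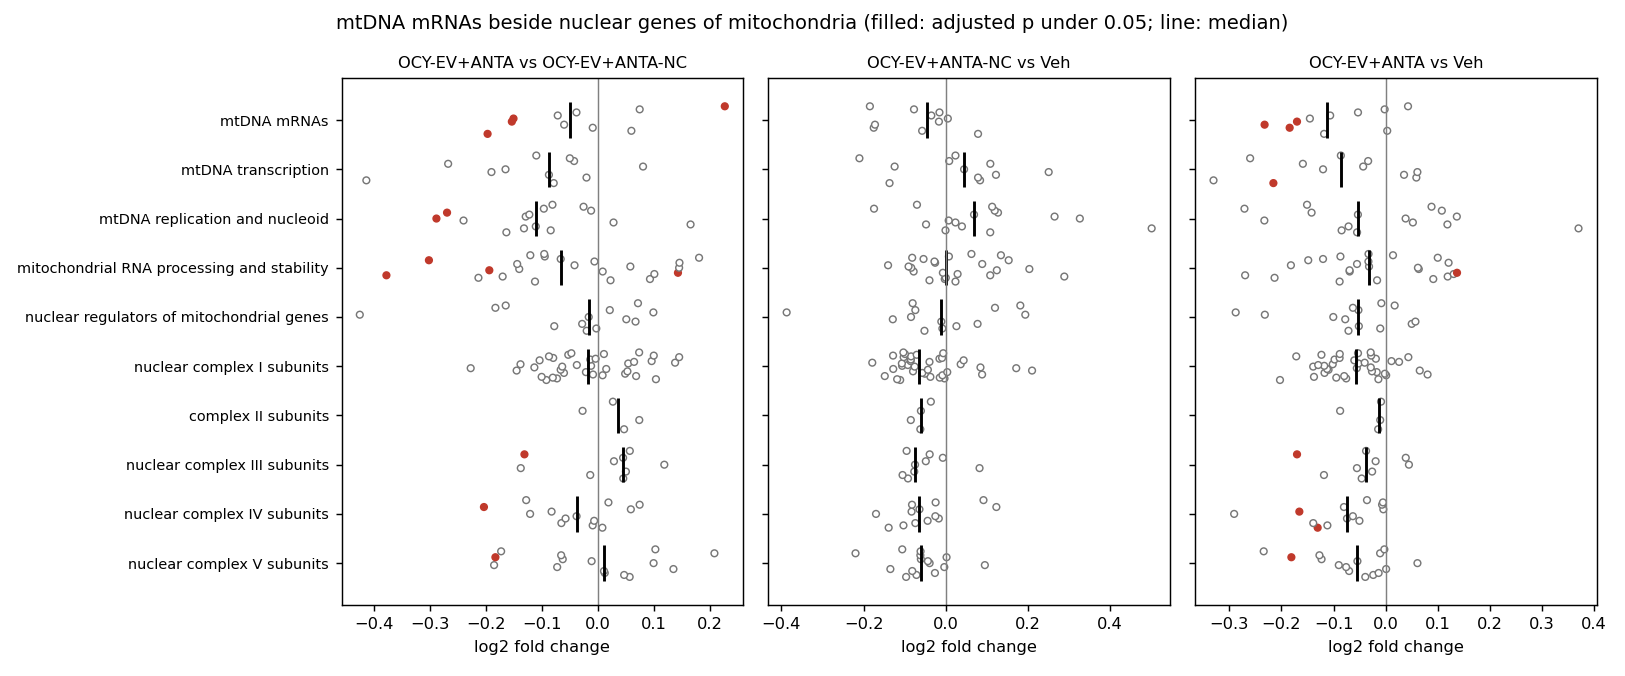
Log2 fold changes as counted are plotted for the 10 mtDNA members and for the tested genes of the 9 nuclear lists, with 1 point per gene, filled where the adjusted p was under 0.05, and a line at the median of each list, in the 3 comparisons. The lines of the members stand at -0.05, -0.05 and -0.11, and no point is filled in the middle plot.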

How the data were processed

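The authors deposited, per library, 1 table of raw counts per gene and 1 of FPKM; counting was by HTSeq on mm10, per the submitters' processing notes. The deposited FPKM equal count over gene length and library total. No source used here gives the aligner, annotation or strand setting. Symbols came from GENCODE M21 (21851 of 21959 identifiers).

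Counts were filtered (filterByExpr, minimum count 10, minimum total 15), scaled by TMM and tested in 1 fit of all 9 libraries with edgeR 4.0.16 in R 4.3.3, with Benjamini-Hochberg adjustment over 11562 genes at 0.05. For the corrected values, a spline on GC (5 degrees of freedom) and log2 length (4), fitted per library on nuclear genes, was removed by offsets. Sequence copies were sought with blastn 2.17.0 among annotated transcripts (identity of at least 80%). Alternatives included DESeq2 1.42.0 and limma 3.58.1 on log2(FPKM + 1). Same-numbered libraries of OCY-EV+ANTA and OCY-EV+ANTA-NC correlated at 0.113 to 0.298 in their deviations from the group means, every pair above 0.1. Differently numbered ones lay at -0.20 to 0.0639. The labels' numbers were therefore taken to pair these 2 groups, and a fit with the number as a block is given beside the unblocked fit. The block fit held all 9 libraries, so it treats Veh as paired too, which cannot be told. The pairing comes from the data, since no label says what a number marks. The fits were tested on simulated data in which only nuclear genes were changed, without a replicate effect. This does not cover changes as small as most of those of the members. Members and lists were chosen with earlier results of these data known. Named were all members, the other mtDNA genes, per nuclear list and comparison up to 4 called genes (else 2 as values), and the 5 genes most like the members. Libraries of a group differed by a chi-square per gene of 2.23 to 4.69, where sampling alone gives 1. Precision at this depth covers counting error only; the groups of 3 limit the tests.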

Additional observations from a re-analysis of the deposited data

How the results depend on the processing

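Called members in OCY-EV+ANTA against OCY-EV+ANTA-NC (4 as reported) numbered 1 with DESeq2, log2(FPKM + 1) or log2(FPKM + 0.1), 7 without the low-count filter or with the replicate number as a block, which called 2427 of all genes, and 1 to 4 with 1 library left out (1 without OCY-EV+ANTA 2, OCY-EV+ANTA 3 or OCY-EV+ANTA-NC 2, 2 without OCY-EV+ANTA 1 or OCY-EV+ANTA-NC 1). In OCY-EV+ANTA-NC against Veh (0) they numbered 5 without the filter, 4 with the GC or the GC and length correction, 3 with the replicate block (522 of all genes), 9 with that block and the GC and length correction (481), and 0 to 1 with 1 library left out (1 without OCY-EV+ANTA-NC 3 or Veh 2). In OCY-EV+ANTA against Veh (3) they numbered 5 without the filter or with the block (1446 of all genes), 1 with the GC and length correction, 0 on either FPKM scale, 1 once members lying in the nuclear block were left out (chosen after seeing the data), and 0 to 4 with 1 library left out (0 without OCY-EV+ANTA 3 or Veh 3, 1 without OCY-EV+ANTA 2 or Veh 2). RLE size factors and scaling from nuclear genes kept the counts at 4, 0 and 3 in the 3 comparisons. The cause of these moves was not tested. Against Veh, same-numbered libraries correlated at 0.0532 to 0.241 with OCY-EV+ANTA-NC and 0.0452 to 0.207 with OCY-EV+ANTA in their deviations from the group means. In each, 1 pair lay under 0.1, and whether the number also pairs libraries with Veh cannot be told. Over the 3 groups, 8 of 9 libraries were closest to their own number, a hint from the data alone. In OCY-EV+ANTA against OCY-EV+ANTA-NC the block lost no call of a member.

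Signs turned under the correction for GC and length, for GC alone, and for GC and length with the block, in that order. In OCY-EV+ANTA against OCY-EV+ANTA-NC the log2 fold changes were then mt-Nd2 (0.0972, 0.0795, 0.10), mt-Nd4 (0.13, 0.12, 0.13), mt-Co2 (0.12, 0.0946, 0.12) and mt-Co3 (0.0557, 0.0379, 0.0583). In OCY-EV+ANTA-NC against Veh they were mt-Nd1 (-0.0894, -0.0950, -0.0894) and mt-Atp6 (-0.0287, -0.0352, -0.0352), and in OCY-EV+ANTA against Veh mt-Nd5 (0.0411, 0.0215, 0.0402). Under the first and last of these settings alone, mt-Nd4 (0.00188, 0.00236) turned in OCY-EV+ANTA against Veh and mt-Nd4l (0.0146, 0.0138) in OCY-EV+ANTA against OCY-EV+ANTA-NC. With library size alone, log2(FPKM + 1) and log2(FPKM + 0.1), values near 0 turned for mt-Nd4 (0.00722, 0.00622, 0.00622) and mt-Cytb (0.00591, 0.00314, 0.00314) in OCY-EV+ANTA-NC against Veh and for mt-Co1 (-0.00551, -0.00577, -0.00577) in OCY-EV+ANTA against Veh, where mt-Nd5 gave 0.000139 with 2 groups only. With 1 library left out, signs turned within -0.14 to 0.0134 for mt-Nd2, -0.0349 to 0.0287 for mt-Co2, -0.13 to 0.0141 for mt-Co3, -0.00855 to 0.20 for mt-Nd3 and -0.23 to 0.0464 for mt-Nd4l in OCY-EV+ANTA against OCY-EV+ANTA-NC, within -0.0604 to 0.0577 for mt-Nd1, -0.12 to 0.0277 for mt-Nd2, -0.0421 to 0.0349 for mt-Nd4, -0.0546 to 0.0564 for mt-Cytb and -0.46 to 0.0765 for mt-Nd4l in OCY-EV+ANTA-NC against Veh, and within -0.0283 to 0.0190 for mt-Nd5, -0.0404 to 0.12 for mt-Nd6, -0.0114 to 0.0256 for mt-Co1, -0.27 to 0.0140 for mt-Nd3 and -0.0297 to 0.00446 for Sdha in OCY-EV+ANTA against Veh.

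The members' share was 4.04% in OCY-EV+ANTA, 4.07% in OCY-EV+ANTA-NC and 4.15% in Veh over nuclear counts, and 10.005%, 10.2% and 10.3% of the summed FPKM in the same order. mt-Nd6 per length was 2.87%, 2.47% and 2.70% of the heavy-strand sum in that order. With 1 library left out, the share of counts lay at 3.86% to 3.93% in OCY-EV+ANTA, 3.86% to 3.97% in OCY-EV+ANTA-NC and 3.94% to 4.02% in Veh, and mt-Nd6 per heavy-strand count at 1.02% to 1.07%, 0.824% to 0.961% and 0.957% to 1.06% in that order. The corrected calls were not rerun with libraries left out.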
